A study of Mus musculus with 12 samples.

Results

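Matricellular and related matrix proteins of tumor-associated macrophages (TAMs) were followed in 12 bulk RNA-seq libraries, together with the surface glycoproteins they are studied with. The 8 genes are Spp1, Thbs1, Fn1, Tgfbi and Ecm1, which encode secreted proteins, and Cd44, Pdpn and Gpnmb, which encode membrane proteins. They were selected by name from the 55401 genes of each count table, on the values that they show in the same 2 comparisons described here. Their differences are therefore given as a description, with standard errors and no p-values. All 8 genes were listed once and passed the filter on low counts in both tables.

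Matricellular proteins are secreted into the matrix without forming its fibers, and they tell cells about their surroundings through integrins and other receptors. Macrophages in wounds and tumors are a known source of osteopontin (Spp1), thrombospondin-1 (Thbs1) and fibronectin (Fn1). CD44 binds hyaluronan and is a receptor of osteopontin, whereas podoplanin (Pdpn) and GPNMB mark subsets of inflammatory and lipid-laden macrophages.

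TAMs (in the methods, CD45+ CD11b+ F4/80+ cells without Ly6C and Ly6G) were sorted from subcutaneous B16-F10 melanoma tumors of mice, and each of the 4 groups holds 3 libraries. In 1 comparison, the WT libraries came from AMPKfl/fl mice and the AMPK-KO libraries from AMPKfl/flLyz2cre/cre mice, so by their labels both groups carry the floxed allele and only the latter a Cre, which the myeloid gene Lyz2 drives. The counts of Lyz2 given below do not separate these groups. These tumors were taken 15 days after implantation. In the other comparison, TAMs of mice labelled WT were taken from early-stage tumors (day 8) and late-stage tumors (day 15). The labels give no age and do not say whether a library pooled animals or whether replicates came from separate animals, so p-values measure the spread between these libraries, which may be technical in part. The series asks how AMPK, a kinase that senses cellular energy, acts in TAMs and how TAMs change as the tumor progresses.

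Library totals ranged from 71019494 to 84470374 counts. Prkaa1, which encodes the AMPK catalytic subunit alpha-1, had 4535 to 5165 counts in the WT and 3285 to 3467 in the AMPK-KO libraries, which is -0.60 on the log2 scale (SE 0.07, edgeR adjusted p = 2.3e-04). Prkaa2, the alpha-2 subunit gene, had 77 to 86 and 31 to 55 counts (adjusted p = 0.0875). The paper names alpha-1 as the subunit knocked out. A transcript from a gene without 1 of its exons is still counted, since reads were summed over the gene. Lyz2 itself had 671 to 975 counts in the WT and 676 to 1088 in the AMPK-KO libraries, against 88212 to 249165 in the early-stage and late-stage libraries, although the WT label of the first comparison names no Cre allele. The libraries labelled WT thus had Lyz2 as low as the AMPK-KO libraries, and whether they carry the Cre allele was not tested. The genotype label of 2 of the 3 AMPK-KO libraries writes Lyz3cre and Lyz4cre where the title writes Lyz2cre. The methods name female mice. The 4 Y-linked genes counted here summed to 9229 to 11360 counts in WT, 11299 to 12183 in AMPK-KO, 3435 to 4035 in early-stage and 0 to 4 in late-stage libraries, and Xist had 60 to 158, 0 to 8, 13568 to 22094 and 23982 to 41700 counts. WT and AMPK-KO libraries thus had male expression, late-stage libraries female expression, and early-stage libraries both kinds of transcript, so stage and sex cannot be told apart.

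Among the secreted proteins, Spp1 and Ecm1 were lower in both comparisons. Spp1 encodes osteopontin, a phosphoprotein with an RGD integrin-binding site, and lies at chr5:104435118-104441050 on the plus strand (GRCm38, ENSMUSG00000029304.14). Levels are given in CPM, counts scaled to library size with TMM factors, and means with their SD over 3 libraries. Spp1 stood at 640.8, 681.9 and 666.1 CPM in the WT libraries and at 252.3, 244.1 and 253.8 CPM in the AMPK-KO libraries. The mean was 663 ± 20.7 against 250.1 ± 5.19 CPM, that is 2.65-fold lower in AMPK-KO TAMs (log2 fold change -1.41, SE 0.04). The lowest WT library lay 387 CPM above the highest AMPK-KO library. In early-stage TAMs, Spp1 stood at 1034, 1061 and 1003.5 CPM, and in late-stage TAMs at 416.6, 497.9 and 518.1 CPM. The means of 1033 ± 28.7 and 478 ± 53.7 CPM differed 2.16-fold (log2 fold change -1.11, SE 0.09), again without overlap between the groups, and late-stage replicate 1 was the lowest of its group. The gene model Gm42793 overlaps Spp1 on the same strand, and it took 75 to 278 counts per library. In bulk RNA, fewer cells of a type and less RNA per cell cannot be told apart, for this gene and those that follow.

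Promoter sequences were read from the RefSeq table of GRCm38.p6, which holds 6 of the 8 genes, Spp1 with 2 start sites (Thbs1 and Fn1 were not matched). The windows of 250 bases before and 50 bases from the start site on were searched on both strands for 6 short motifs. These were TGANTCA (AP-1), CACGTG (the E-box of MiT/TFE and other factors), TCATGTG (an M-box), TGACNNNGC (the core of the antioxidant response element), TGTGGT (RUNX) and TATAAA (the TATA box). The 4 genes whose windows held a match are shown, picked with their lower level in both comparisons known. Cd44 was lower in both as well, with overlapping stage groups, and held no match. The share of windows with any of the 6 motifs was not counted. A match is only a run of letters, not a site, and its link to level was not tested. The 250 bases before the upstream start site of Spp1 (chr5:104434861-104435110, plus strand) carry a RUNX match on the minus strand, read as ACCACA, that begins 128 bases before the start, and a TATAAA farther upstream, both in capitals.
Spp1: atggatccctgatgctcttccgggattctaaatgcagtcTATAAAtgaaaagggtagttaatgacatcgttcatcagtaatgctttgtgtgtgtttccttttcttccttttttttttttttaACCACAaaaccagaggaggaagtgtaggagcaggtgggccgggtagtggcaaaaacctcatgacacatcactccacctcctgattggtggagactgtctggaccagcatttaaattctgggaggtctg
TGTGGT occurred in 16.8% and TATAAA in 13.6% of all 32851 promoter windows of the table.

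**Figure D1:**
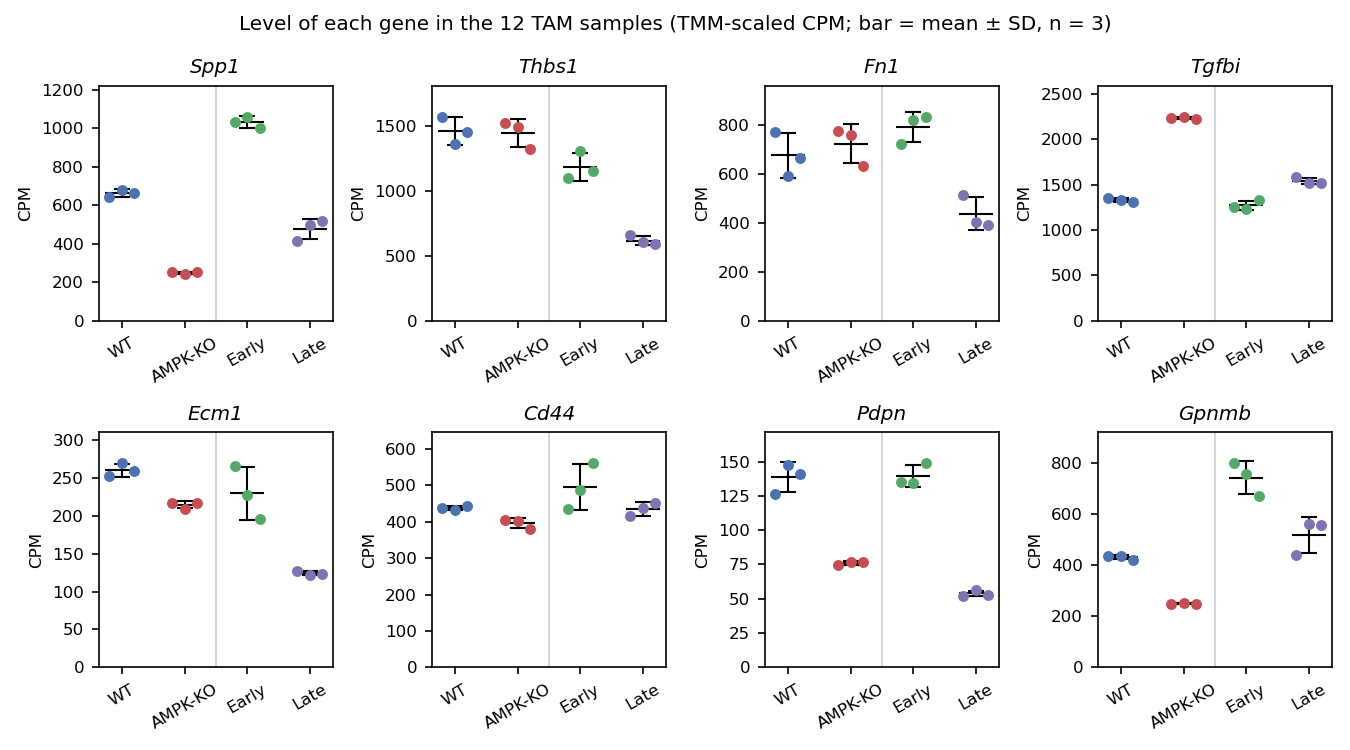
Level of each of the 8 genes in CPM (vertical axes, each starting at 0) in the 12 libraries, grouped as WT, AMPK-KO, Early (day 8) and Late (day 15). Points are libraries and bars are the mean ± SD of 3. Spp1, Ecm1, Pdpn and Gpnmb are lower on the right of each pair, Tgfbi is higher, and Thbs1 and Fn1 overlap between WT and AMPK-KO only.

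Thbs1 and Fn1 were lower in late-stage TAMs and overlapped between the genotypes. Thbs1 (chr2:118111876-118127133, plus strand, ENSMUSG00000040152.8) encodes thrombospondin-1, a trimeric ligand of CD36 and CD47 that can activate latent TGF-beta. Its WT libraries had 1575, 1362 and 1456 CPM and its AMPK-KO libraries 1523.5, 1496 and 1323 CPM, so the ranges crossed. The log2 fold change was -0.02 (SE 0.06), the means being 1465 ± 107 and 1448 ± 109 CPM. In contrast, the early-stage libraries had 1102, 1307 and 1156 CPM and the late-stage libraries 661, 606 and 590 CPM. Every late-stage library was below every early-stage library, and the mean went from 1188 ± 106 to 619 ± 37.1 CPM (1.92-fold lower, log2 fold change -0.94, SE 0.08).

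Fn1 (chr1:71585520-71653200, minus strand, ENSMUSG00000026193.15) encodes fibronectin, an adhesive glycoprotein that binds integrins, fibrin and collagen. It stood at 772, 591 and 666 CPM in WT and at 778, 761 and 632 CPM in AMPK-KO TAMs, with a log2 fold change of 0.10 (SE 0.10). It thus differed by about the size of its standard error, while the libraries of each group spread over a wide range. In early-stage TAMs it stood at 724, 822 and 835 CPM, and in late-stage TAMs at 515, 406 and 393.5 CPM. Here the groups were apart, at 794 ± 60.9 and 438 ± 66.9 CPM (1.81-fold lower, log2 fold change -0.86, SE 0.11). Fn1 is annotated with 17 transcripts, which gene counts cannot separate.

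Tgfbi was the single gene of the 8 that was higher in both AMPK-KO and late-stage TAMs. It encodes a TGF-beta-induced matrix protein with fasciclin domains that binds collagen and integrins, and lies at chr13:56609523-56639562 on the plus strand (ENSMUSG00000035493.10). Its level was 1348, 1332.5 and 1304 CPM in WT and 2232, 2247 and 2224 CPM in AMPK-KO TAMs. With SDs of 22.2 and 11.8 CPM around means of 1328 and 2234 CPM, it was 1.68-fold higher (log2 fold change 0.75, SE 0.03). Between the stages the difference was smaller, from 1254, 1234 and 1324.5 CPM at day 8 to 1578, 1513.5 and 1520.5 CPM at day 15 (log2 fold change 0.27, SE 0.06). The stages did not overlap, the lowest late-stage library being 189 CPM above the highest early-stage library.

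Ecm1 encodes extracellular matrix protein 1, a secreted glycoprotein that binds other matrix proteins (chr3:95734147-95739569, minus strand, ENSMUSG00000028108.15). Its WT libraries had 252.8, 270.0 and 259.6 CPM and its AMPK-KO libraries 217.7, 209.4 and 217.6 CPM. The groups were apart by a narrow gap of 35.1 CPM (log2 fold change -0.28, SE 0.05). Early-stage libraries had 265.7, 228.2 and 195.8 CPM, the widest relative spread of the 8 genes at that stage with a coefficient of variation of 15.2%, and late-stage libraries had 127.2, 122.1 and 123.4 CPM. Ecm1 was 1.85-fold lower at day 15 (log2 fold change -0.89, SE 0.10). The 250 bases before its start site (chr3:95739570-95739819, minus strand) hold an AP-1 match, TGAGTCA, and a TATAAA that begins 27 bases before the start, shown in capitals.
Ecm1: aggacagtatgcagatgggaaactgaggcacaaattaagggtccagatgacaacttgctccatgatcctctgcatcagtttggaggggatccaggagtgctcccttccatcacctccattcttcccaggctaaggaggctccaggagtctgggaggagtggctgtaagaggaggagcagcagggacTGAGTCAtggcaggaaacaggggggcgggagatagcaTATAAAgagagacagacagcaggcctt
TGANTCA occurred in 7.81% of all promoter windows of the table.

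Of the 3 membrane glycoproteins, Pdpn and Gpnmb were lower in both comparisons, whereas Cd44 differed the least of the 3. Cd44 (chr2:102811141-102901665, minus strand, ENSMUSG00000005087.17), the receptor of hyaluronan and osteopontin, had 439.0, 432.5 and 443.9 CPM in WT and 405.5, 401.9 and 380.9 CPM in AMPK-KO TAMs (log2 fold change -0.15, SE 0.04). The groups were apart by 27.0 CPM. At the stages, Cd44 had 436.5, 487.2 and 561.4 CPM early and 415.2, 439.3 and 451.2 CPM late, with overlapping groups (log2 fold change -0.19, SE 0.09). Its 9 annotated transcripts, which include variant exons, were counted together.

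Pdpn (chr4:143267431-143299564, minus strand, ENSMUSG00000028583.14) encodes podoplanin, a mucin-type glycoprotein that binds CD44 and the platelet receptor CLEC-2. Its WT libraries had 126.6, 147.9 and 141.3 CPM and its AMPK-KO libraries 74.4, 76.5 and 77.1 CPM. The mean was 1.82-fold lower in AMPK-KO TAMs (log2 fold change -0.87, SE 0.06), and the AMPK-KO libraries lay within a few CPM of each other. Between the stages, 135.2, 134.6 and 148.9 CPM stood against 52.2, 56.2 and 53.0 CPM. This was a 2.59-fold lower level in late-stage TAMs (log2 fold change -1.37, SE 0.08), past Spp1 and thus the largest stage difference of the 8 genes.

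Gpnmb (chr6:49036546-49070929, plus strand, ENSMUSG00000029816.10) encodes a lysosomal and surface glycoprotein of phagocytes, and melanocytes express it as well. It had 437.9, 435.8 and 421.5 CPM in WT and 249.8, 253.5 and 248.4 CPM in AMPK-KO TAMs. With SDs of 8.93 and 2.63 CPM, the groups were 168 CPM apart at their closest, and AMPK-KO TAMs were 1.72-fold lower (log2 fold change -0.78, SE 0.04). Early-stage libraries had 799.8, 756.0 and 672.1 CPM and late-stage libraries 438.0, 561.9 and 555.5 CPM (log2 fold change -0.52, SE 0.11). Late-stage replicate 1 was the lowest, as it was for Spp1 and, by small margins, for Pdpn and Cd44. The bases before the start sites of Pdpn (chr4:143299565-143299814, minus strand) and Gpnmb (chr6:49036268-49036517, plus strand) follow, with CACGTG in Pdpn and a RUNX match on the minus strand in Gpnmb in capitals.
Pdpn: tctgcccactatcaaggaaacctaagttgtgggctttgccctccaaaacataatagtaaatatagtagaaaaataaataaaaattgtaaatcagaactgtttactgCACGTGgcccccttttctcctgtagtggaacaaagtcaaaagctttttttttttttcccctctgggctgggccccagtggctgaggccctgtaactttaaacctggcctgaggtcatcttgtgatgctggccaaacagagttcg
Gpnmb: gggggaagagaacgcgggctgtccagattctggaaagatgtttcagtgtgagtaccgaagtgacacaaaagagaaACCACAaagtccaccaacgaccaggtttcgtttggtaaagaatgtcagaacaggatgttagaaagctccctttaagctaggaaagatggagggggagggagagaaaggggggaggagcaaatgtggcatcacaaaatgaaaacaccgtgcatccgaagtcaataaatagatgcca
CACGTG occurred in 7.15% of all promoter windows. Gpnmb also held an AP-1 match, TGACTCA, behind its start site and outside the bases shown. TCATGTG (3.77% of all windows) and TGACNNNGC (12.4%) had no match in the 7 windows searched, nor did Tgfbi, Cd44 and the other start site of Spp1 hold any of the 6 motifs.

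**Figure D2:**
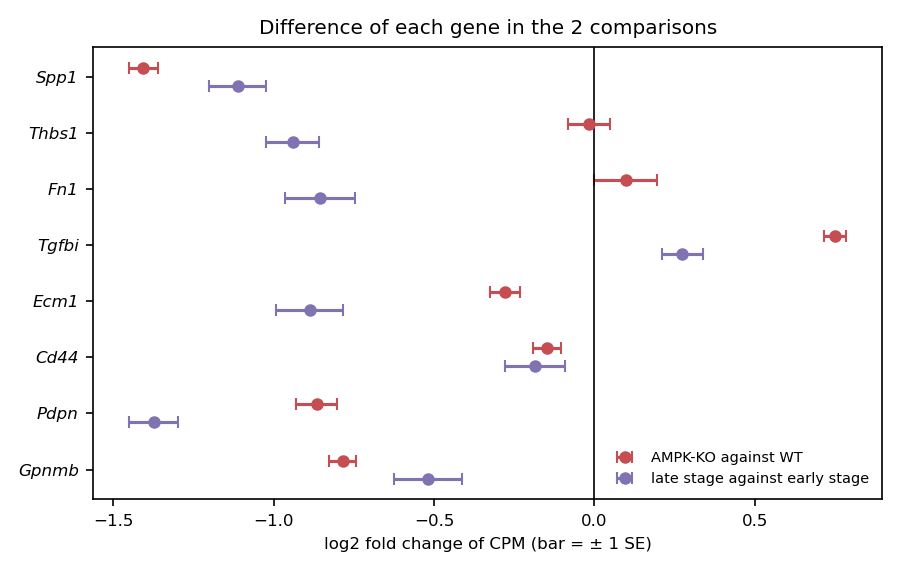
Log2 fold change of CPM of each gene (horizontal axis, bars ± 1 SE from the edgeR fit) for AMPK-KO against WT and for late stage against early stage. Spp1 lies at -1.41 and -1.11, Thbs1 at -0.02 and -0.94, and Tgfbi to the right of 0 in both.

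With calls made where edgeR's adjusted p was under 0.05, 6 of the 8 genes were called between AMPK-KO and WT TAMs, 1 higher and 5 lower. In that comparison 21.1% of all 17532 genes tested were called, 11.3% higher and 9.78% lower. Between the stages 7 of the 8 were called, 1 higher and 6 lower, beside 9.18% of all 17630 genes tested (4.31% higher and 4.88% lower). As the genes were chosen on these contrasts, the counts only describe that choice and nothing is read from them. Over the 12 alternatives, the log2 fold change of Spp1 ranged from -1.43 to -1.38 between genotypes and from -1.18 to -1.02 between stages.

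To compare the genes with each other, counts were divided by the exonic length of the gene and scaled to a common total as TPM. In WT TAMs, Spp1 (1150 ± 14.7 TPM) was above Tgfbi (1008 ± 55.4 TPM) and Thbs1 (692 ± 81.2 TPM). In AMPK-KO TAMs, Tgfbi led at 1753 ± 40.4 TPM, followed by Thbs1 at 706 ± 65.9 TPM and then Spp1 at 449 ± 8.65 TPM. Thus Spp1 went from rank 114 to rank 349 among all genes listed. The top of the order also changed between the stages, from Spp1 (1746 ± 74.9 TPM) over Tgfbi (939 ± 37.5 TPM) at day 8 to Tgfbi (1199 ± 49.2 TPM) over Spp1 (851 ± 82.4 TPM) at day 15. Neighbours at the top of each order did not overlap between libraries. The 5 other genes were between 87.1 TPM (Pdpn, late stage) and 317 TPM (Gpnmb, early stage), and at the early stage Ecm1, Pdpn, Cd44 and Fn1 were in an order whose neighbours overlapped, as did Gpnmb, Cd44 and Fn1 in WT TAMs. Exonic length here joins all annotated exons, so a gene with long rarely used exons, such as Fn1, is set low.

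**Figure D3:**
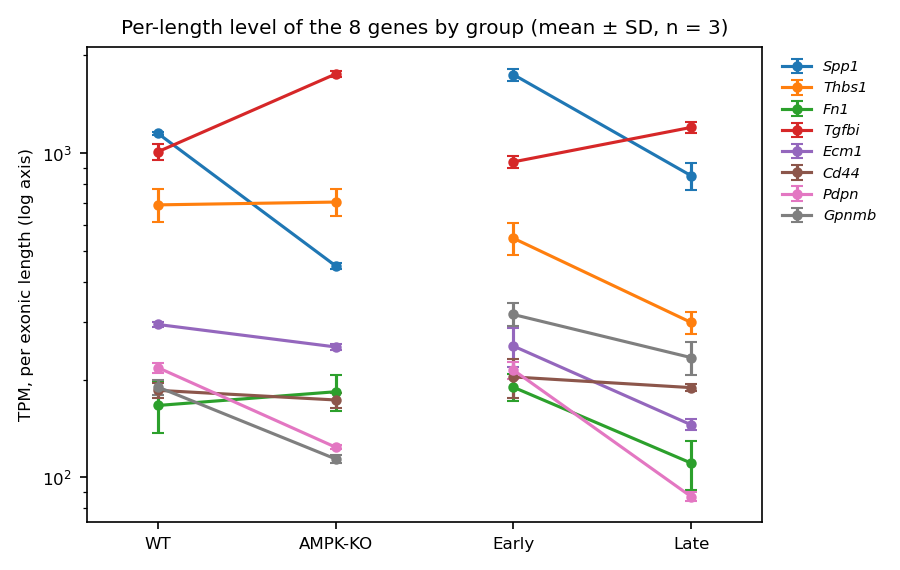
Per-length level of the 8 genes in TPM (vertical log axis) in the 4 groups, as mean ± SD of 3 libraries, with lines joining the groups of each comparison. The lines of Spp1 and Tgfbi cross in both comparisons.

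Summed over the 8 genes, the share of all counts was 0.517% to 0.567% in WT and 0.535% to 0.574% in AMPK-KO TAMs, and these ranges overlapped. It was 0.564% to 0.604% in early-stage and 0.421% to 0.428% in late-stage TAMs, without overlap. Both tables hold groups from day 15 labelled WT. Whether the WT libraries beside AMPK-KO carry the Cre allele was not tested. The tables were normalized separately and differ in sex and in Lyz2, so the values are only set side by side. The late-stage and WT means were 478 and 663 CPM for Spp1, 619 and 1465 CPM for Thbs1, 438 and 676 CPM for Fn1 and 1537 and 1328 CPM for Tgfbi. They were 124 and 261 CPM for Ecm1, 435 and 438 CPM for Cd44, 53.8 and 139 CPM for Pdpn and 518 and 432 CPM for Gpnmb.

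Profiles over the 12 libraries were compared by the root mean square difference of log2 CPM, after each table was centred at its own mean. Among the 8 genes, Fn1 and Thbs1 were the closest pair (0.0930), followed by Ecm1 and Thbs1 (0.172) and by Pdpn and Spp1 (0.228), and Spp1 and Tgfbi were the farthest apart (0.913). Fn1 was also the closest to Thbs1 of all 16811 genes tested in both tables, ahead of Ptafr (0.103), the receptor of platelet-activating factor, and of Ahnak (0.105), Sh2b2 (0.109) and Gab1 (0.110). The median over all genes was 0.422. Closest to Spp1 were Npl (0.130), which encodes an enzyme that breaks down sialic acid, Gm48362 (0.150), Hmox1 (0.154), the inducible heme oxygenase, Mcoln2 (0.157), a cation channel of the endolysosome, and Ptgr1 (0.162), a prostaglandin reductase, with a median over all genes of 0.685. These likenesses describe libraries that share tables and depth, and carry no test.

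The genes next to the 8 on the chromosome were looked at in the same way. Of 48 protein-coding neighbours, 3 on each side, 32 were tested in each comparison. In AMPK-KO TAMs 3 were higher and 2 lower (15.6% called, beside 21.1% of all genes), and in late-stage TAMs 0 were higher and 2 lower (6.25% called, beside 9.18% of all genes), the latter being Malsu1 and Igf2bp3 beside Gpnmb, named after their values were seen. Spp1 belongs to a cluster of genes for mineralized-tissue phosphoproteins. Of these, Ibsp and Mepe had 0 counts in all 12 libraries, which allows up to 3 counts per library, and Dmp1 had at most 4, whereas Spp1 ranked between 65 and 349 among all genes by its mean TPM in the 4 groups.

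Partner genes of the 8 proteins were taken as 107 genes in 8 lists, 1 gene being in 2 of them. The lists were written with earlier results of these data known, and are described by counts and medians. In AMPK-KO TAMs 14 of the 102 tested rose and 26 fell, that is 13.7% and 25.5% beside 11.3% and 9.78% of all genes, with a median log2 fold change of -0.07 beside -0.00 over all genes. In late-stage TAMs 11 of 101 rose and 22 fell, that is 10.9% and 21.8% beside 4.31% and 4.88% of all genes, with a median of -0.12 beside 0.00. The counts of each list that follow have the same shares of all genes as their background. The stage count was 20 without early-stage replicate 2 and 20, 19 and 21 without late-stage replicates 1, 2 and 3, in place of 33. Part of the stage calls in the lists that follow thus depended on single libraries. Between genotypes the count was 34 without WT replicate 3 or without AMPK-KO replicate 2, in place of 40, and 45 without WT replicate 1. For each list, the called gene with the smallest adjusted p (edgeR) in each direction is named.

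Integrins that bind RGD or the alpha-4 and alpha-9 sites of osteopontin had 10 members tested, of which 3 rose and 0 fell in AMPK-KO TAMs (median 0.19). Of the 3, Itga9 lost its call in 6 of the 12 alternatives. Itgb7, the beta-7 chain that pairs with alpha-4, rose from 77.5 ± 2.51 to 141 ± 4.57 CPM (log2 difference 0.86, SE 0.05, adjusted p = 2.1e-06). In late-stage TAMs 2 rose and 1 fell (median -0.02). The call of Itga9, which rose, was lost in 4 of the 12 alternatives. Itgb5, which pairs with alpha-v, rose there by 0.52 on the log2 scale (SE 0.07, adjusted p = 1.8e-03), and Itgb7 fell by 0.48 (SE 0.10, adjusted p = 0.0148), a call that was lost without early-stage replicate 2 or any 1 late-stage replicate (adjusted p up to 0.0809 over the alternatives).

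Among 9 thrombospondin receptors and partners, 3 rose and 2 fell in AMPK-KO TAMs (median 0.12). The call of Sirpa, which rose, was lost in 3 of the 12 alternatives. Cd47, the receptor of the thrombospondin C-terminus and the ligand of SIRP-alpha, rose from 309.5 ± 9.83 to 360 ± 4.28 CPM (log2 difference 0.22, adjusted p = 5.6e-03). Cd36, a scavenger receptor that binds the thrombospondin type 1 repeats, fell from 470.0 ± 4.52 to 302 ± 9.60 CPM (log2 difference -0.64, SE 0.04, adjusted p = 4.3e-06). In late-stage TAMs, where Thbs1 was lower, 2 rose and 4 fell (median -0.02). The stage calls of Lrp1, which rose, and Cd47, which fell, were lost in 7 and 6 of the 12 alternatives. Itga6, an integrin chain, rose by 0.83 on the log2 scale (adjusted p = 1.9e-04), and Sdc1, the heparan sulfate proteoglycan syndecan-1, fell by 0.88 (adjusted p = 1.5e-04). Sdc1 had a log2 difference of 0.32 in AMPK-KO TAMs (adjusted p = 8.0e-03).

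Of the 25 other matricellular and related matrix genes, 21 were tested, and most did not pass. In AMPK-KO TAMs 1 rose and 4 fell (median -0.14), with Tnc (tenascin-C) from 38.7 ± 1.00 to 49.8 ± 1.67 CPM (adjusted p = 1.5e-03) and Lgals1 (galectin-1) from 1075 ± 129 to 628 ± 34.5 CPM (log2 difference -0.78, adjusted p = 6.3e-05). In late-stage TAMs 0 rose and 3 fell (median -0.34), led by Postn (periostin), from 46.5 ± 3.85 to 22.9 ± 4.65 CPM (log2 difference -1.02, adjusted p = 2.4e-03). The stage calls of Ccn3 and Fbln1, which also fell, were lost in 7 and 6 of the 12 alternatives. Between genotypes, that of Lgals3, which fell, was lost in 5. Tnc and Postn are also made by fibroblasts, whose markers are given below with the markers of other cells.

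Genes that cross-link, take up or cleave around fibronectin were called in 5 of 9 cases in each comparison. In AMPK-KO TAMs 1 rose and 4 fell (median -0.15). Tgm2, a transglutaminase that cross-links fibronectin, rose from 700.2 ± 15.4 to 1005 ± 19.0 CPM (log2 difference 0.52, adjusted p = 9.1e-06), and Plau, the urokinase gene, fell from 535 ± 11.5 to 310.4 ± 7.55 CPM (log2 difference -0.79, adjusted p = 1.0e-06). In late-stage TAMs 2 rose and 3 fell (median -0.12). The transglutaminase gene F13a1 fell from 612 ± 92.3 to 182 ± 16.6 CPM (log2 difference -1.75, adjusted p = 2.7e-05).

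The list of hyaluronan, CD44 and podoplanin partners held 3 genes that rose and 5 that fell among 20 tested in AMPK-KO TAMs (median -0.13). The calls of Msn and Adam17, which rose, and of Hmmr, which fell, were lost in 5, 3 and 2 of the 12 alternatives. Srgn, the proteoglycan serglycin, which binds CD44, rose by 0.36 on the log2 scale (adjusted p = 2.8e-04), and Stab1, a scavenger receptor for matrix fragments, fell from 2361 ± 109 to 1316 ± 32.4 CPM (log2 difference -0.84, adjusted p = 7.3e-07). In late-stage TAMs 0 of 19 rose and 5 fell (median -0.11). Of the 5, Lgals8, Hyal2 and Hyal1 lost their calls in 6, 5 and 3 of the 12 alternatives. Lyve1, a hyaluronan receptor, fell from 68.2 ± 4.42 to 18.6 ± 3.69 CPM (log2 difference -1.87, adjusted p = 4.4e-05).

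Tgfbi is a known target of TGF-beta. Of 17 genes of the TGF-beta pathway, 2 rose and 0 fell in AMPK-KO TAMs (median 0.06). That was 11.8% higher, beside 11.3% of all genes, and 11.8% called, beside 21.1% of all genes. Skil, a feedback gene, rose from 82.5 ± 2.79 to 129 ± 1.97 CPM (log2 difference 0.64, adjusted p = 1.2e-05). In late-stage TAMs 4 rose and 0 fell (23.5% higher, beside 4.31% of all genes, median 0.11). Tgfb3, a ligand, went from 20.9 ± 1.03 to 37.3 ± 2.92 CPM (log2 difference 0.84, adjusted p = 7.2e-04). The stage calls of Smad7, Tgfbr1 and Tgfbr2 were lost in 5, 2 and 1 of the 12 alternatives. A link of these genes to the level of Tgfbi was not tested.

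The MiT/TFE factors, of which MITF is known to drive Gpnmb, held 1 gene that fell of 4 in AMPK-KO TAMs. This was Tfec, from 33.3 ± 3.33 to 22.2 ± 1.64 CPM (log2 difference -0.58, adjusted p = 1.3e-03). In late-stage TAMs Mitf fell from 124 ± 16.4 to 68.8 ± 2.95 CPM (log2 difference -0.86, adjusted p = 7.4e-04), as did 1 other of the 4, Tfec. Melanoma cells express Mitf as well.

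Spp1 and Gpnmb are often listed with lipid-associated macrophage genes. Of 13 such genes, 11 fell and 1 rose in AMPK-KO TAMs (median -0.48), Cstb being the gene that did not pass (adjusted p = 0.0596, named after its values were seen). Ctsd, the lysosomal protease cathepsin D, fell from 4937 ± 178 to 2797 ± 83.5 CPM (log2 difference -0.82, adjusted p = 4.9e-07). Itgax, the gene of CD11c, rose from 119 ± 4.76 to 254 ± 14.0 CPM (log2 difference 1.10, adjusted p = 7.3e-07). In late-stage TAMs 4 fell and 1 rose (median -0.11), led by Fabp5, a fatty acid binding protein, with a log2 difference of -0.98 (adjusted p = 8.1e-04), and by Itgax with 0.56 (adjusted p = 1.0e-03). The stage calls of Cstb, Cd9 and Plin2 were lost in 7, 5 and 4 of the 12 alternatives. Between genotypes, the calls of Lgals3 and Lpl were lost in 5 and 1 of the 12.

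**Figure D4:**
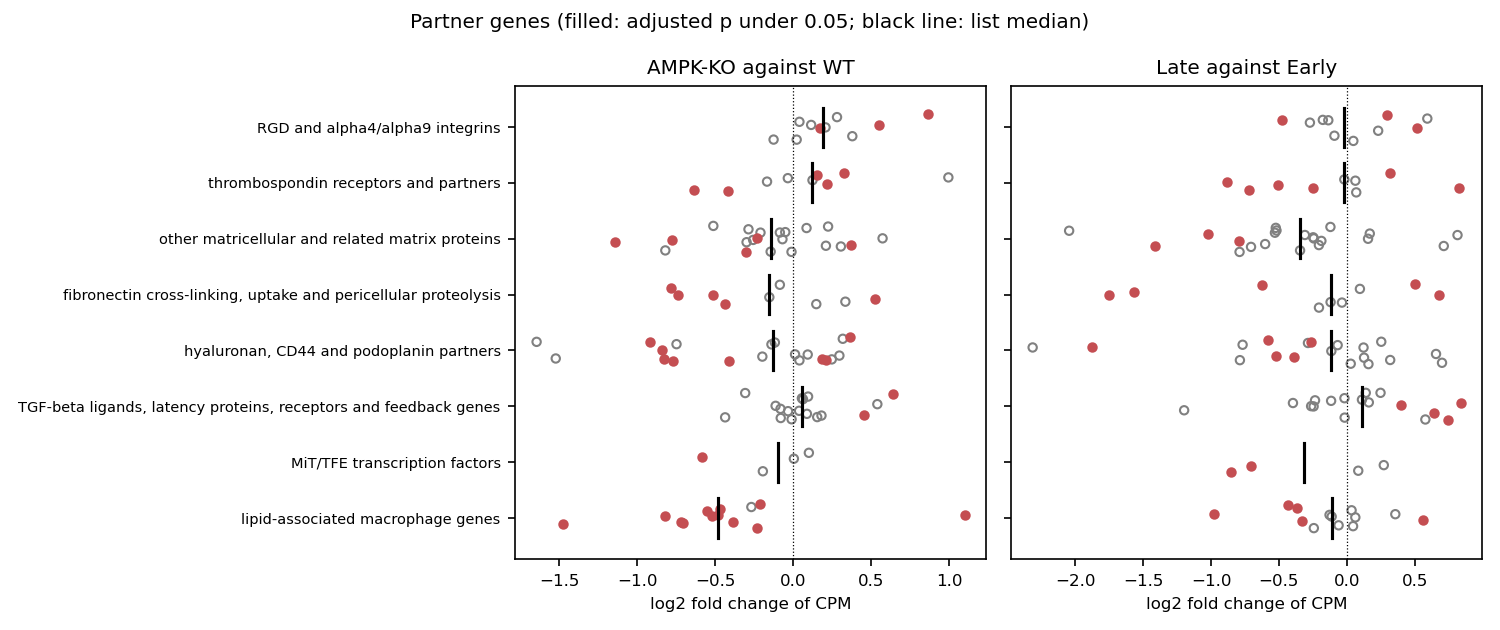
Log2 fold change of CPM of the partner genes tested (horizontal axes), by list, for AMPK-KO against WT (left) and late against early stage (right). Filled points have an adjusted p under 0.05 and black lines are list medians, the lowest on the left being -0.48 for the lipid-associated genes.

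Markers of macrophages and of cells that a sort could carry over were summed in each library. The gate in the methods, on CD45 and against Ly6C and Ly6G, would remove melanoma cells, fibroblasts, Ly6C+ monocytes and neutrophils. Legends of supplementary figures instead write Ly6C+, and that of the gating strategy also Ly6G+. The 9 macrophage markers summed to 12090 to 13477 CPM in WT and 12279 to 12650 CPM in AMPK-KO TAMs (2 higher, 1 lower). Cd68 fell there from 1361 to 931 CPM, while Itgam rose from 1067 to 1566 CPM and Csf1r from 1211 to 1334 CPM. The macrophage sum was 9381 to 11690 CPM in early-stage and 12388 to 12515 CPM in late-stage TAMs (1 higher, 0 lower). Early and late means were 1780 and 2499 CPM for C1qa, 2162 and 2734 CPM for C1qb and 1712 and 2390 CPM for C1qc. Adgre1, Csf1r and Itgam differed by 0.11, 0.08 and 0.05 on the log2 scale. Cd68, Fcgr1 and Mertk had lower means at the late stage. The 9 markers of B16 melanoma or melanocytes summed to 989 to 996 CPM in WT and 665 to 695 CPM in AMPK-KO TAMs, with 8 of 9 lower (median log2 fold change -0.50). Between genotypes they thus moved in the same direction as Spp1, Pdpn, Gpnmb, Ecm1 and Cd44 and against Tgfbi, while Thbs1 and Fn1 overlapped. In late-stage TAMs 7 of 9 were lower (median -0.69). The melanoma sum was 1661 to 1794 CPM at the early stage, and 750.2, 1190 and 1216 CPM in late-stage replicates 1, 2 and 3. Replicate 1 was thus the lowest of its group, as for Spp1, Gpnmb, Pdpn and Cd44. For Pdpn and Cd44 the margins were small (52.2 beside 56.2 and 53.0 CPM, and 415.2 beside 439.3 and 451.2 CPM). Replicate 1 was the highest for Thbs1, Fn1, Ecm1 and Tgfbi, for Ecm1 by a small margin (127.2 beside 122.1 and 123.4 CPM). The 7 markers of fibroblasts, which also make Fn1, Tnc and Postn, summed to 575 to 621 CPM in WT and 747 to 829 CPM in AMPK-KO TAMs (6 of 7 higher), and to 811 to 884 CPM in early-stage and 397 to 561 CPM in late-stage TAMs (3 of 7 lower). Late-stage replicate 1 had the lowest fibroblast sum (397 CPM, beside 552 and 561 CPM) and the highest Fn1 of its group. The 6 monocyte markers summed to 458 to 502 CPM in WT and 799 to 826 CPM in AMPK-KO TAMs (4 higher), and to 542 to 631 CPM in early-stage and 213 to 242 CPM in late-stage TAMs (5 lower). Of the 7 platelet markers, for cells that store thrombospondin-1, Pf4 and Ppbp were lower in each comparison and made up nearly all of the sum, which was 623 to 808 CPM in WT, 309 to 365 CPM in AMPK-KO, 434 to 600.1 CPM in early-stage and 234 to 262 CPM in late-stage TAMs. The 5 platelet-restricted markers, Itga2b, Gp9, Gp1ba, Gp1bb and Treml1, stood at 1.05 CPM or less in every library and were not called. The medians over the platelet markers tested were 0.15 between genotypes and 0.37 between stages.

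The other marker lists summed to at most 196 CPM in any library, but several moved with the groups. In AMPK-KO TAMs 5 of 5 NK cell markers (29.7 to 32.8 against 73.8 to 75.6 CPM), 5 of 6 T cell markers (87.4 to 95.3 against 153 to 159 CPM) and 5 of 6 dendritic cell markers (63.7 to 73.7 against 96.2 to 102 CPM) were higher. NK cells, T cells and dendritic cells also express Itgax or Itgb7, which rose there. The part of these cells in those 2 rises was not tested. The neutrophil sum went from 95.5 to 102 CPM in WT to 159 to 162 CPM in AMPK-KO TAMs (3 of 8 higher). Csf3r made up nearly all of it (means 96.5 and 154 CPM), beside S100a8 at 1.05 and 2.10 and S100a9 at 0.70 and 2.47 CPM. The endothelial sum went from 56.8 to 68.9 CPM in WT to between 125 and 128 CPM in AMPK-KO TAMs (2 higher, 1 lower, median -0.06). Pecam1 had means of 37.5 and 91.2 CPM there, while Cdh5 was lower, at 3.74 and 2.53 CPM. Of the 4 B cell markers 3 were lower and 1 higher (median -4.06), with sums of 27.7 to 29.1 and 19.9 to 22.0 CPM. In late-stage TAMs 4 of 5 NK cell markers were lower (82.6 to 93.2 against 36.1 to 49.5 CPM), 2 of 6 T cell and 2 of 4 B cell markers and 1 of 6 dendritic cell markers were higher, and 2 of 8 neutrophil and 1 of 7 endothelial markers were lower. At 0 throughout a group were Gp9, Retnlg and Camp at the early stage, Camp and Ngp in WT, and Ngp in AMPK-KO and late-stage TAMs. The part of these cells in the levels of the 8 genes and of the partner genes was not tested.

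**Figure D5:**
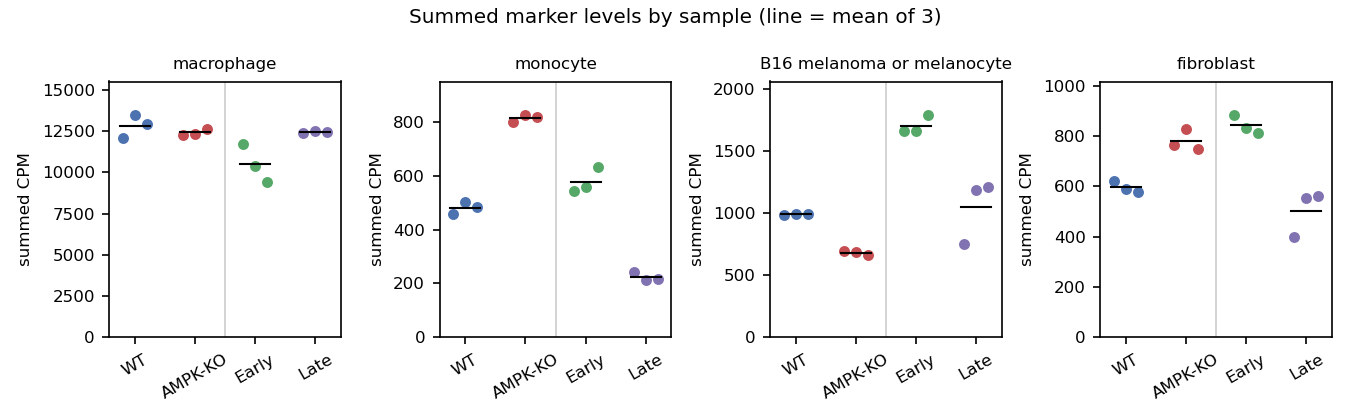
Summed CPM of marker genes (vertical axes from 0) in the 12 libraries for macrophages, monocytes, B16 melanoma or melanocytes and fibroblasts, with lines at group means. The melanoma sum is lower in AMPK-KO than WT and in late-stage than early-stage libraries, and lowest in its group in late-stage replicate 1.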

How the data were processed

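Bulk RNA-seq of sorted TAMs was analysed from 2 tables of raw counts per gene that the authors deposited, made with HISAT2 and featureCounts without normalization. The submitters' notes name GRCm38 (mm10). Versions and the handling of strand and multiply mapped reads are not given in the sources used here. Of the 55401 identifiers, 54349 matched GENCODE M21 with their version, including all 8 genes. Columns outside the 12 samples numbered 0. Each table was fitted separately with edgeR 4.0.16 (filterByExpr, TMM, quasi-likelihood test, no covariates) in R 4.3.3, with Benjamini-Hochberg adjustment over all the genes that passed the filter. Library totals of over 71019494 counts leave little counting error at these levels, so SDs between libraries set the precision. Alternatives changed the scaling (RLE, upper quartile), the tool (DESeq2 1.42.0), the filter (1 count in all, or 10 in each library) or the call (absolute log2 fold change above 1), blocked on the replicate number, or left out 1 library at a time.

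The 8 genes and the partner and marker lists were chosen with earlier results of these data known. The genes named are the 8, Prkaa1, Prkaa2 and Lyz2, the called partner with the smallest adjusted p per list and direction, and the 5 genes closest in profile to Spp1 and Thbs1. Genes named otherwise had been seen, and 1 gene that the rule covers is not reported here. Partner symbols of the CCN family and 1 other were matched through RefSeq synonyms. Profiles used log2 CPM with a prior count of 2. Plots were drawn with matplotlib 3.10.9.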

Additional observations from a re-analysis of the deposited data

How the results depend on the processing

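With a fold threshold added, the count of genes went from 3693 to 585 between genotypes and from 1619 to 329 between stages, that of partner genes from 40 to 3 and from 33 to 5, and that of the 8 genes from 6 to 1 (Spp1) and from 7 to 2 (Spp1 and Pdpn). Between stages, DESeq2 called 2467 genes and the fit without a filter 936. When 1 library was left out, the counts ranged between genotypes from 2414 (without WT replicate 3, with 2419 without AMPK-KO replicate 2) to 4039 genes, from 34 to 45 partner genes and from 5 to 6 of the 8. Between stages they ranged from 653 (without late-stage replicate 2) to 2835 (without early-stage replicate 1), with 680 without early-stage replicate 2 and 853 and 682 without late-stage replicates 1 and 3. They ranged there from 19 to 37 partner genes and from 5 to 8 of the 8. Where an arm kept 2 libraries, the spread was pooled over the groups. The causes of these shifts were not tested. Same-numbered libraries did not deviate together (correlations from -0.004 to 0.042 between genotypes and from 0.013 to 0.026 between stages), so the numbers were not taken to pair them. The replicate block gave 3862 and 1417 genes, 44 and 29 partner genes, and 5 and 6 of the 8. Over the 12 alternatives, Cd44 was called between genotypes in 5 (not without a filter, with the block, or without WT replicate 2 or 3 or any AMPK-KO replicate), Tgfbi between stages in 6 (not without a filter, with the block, or without early-stage replicate 2 or any late-stage replicate), and Gpnmb between stages in 10 (not without a filter or early-stage replicate 2). Cd44 was called between stages only without early-stage replicate 1. No direction of the 8 genes was reversed by RLE or upper-quartile factors, DESeq2 or either filter, and Thbs1 between genotypes, which was not called, lay between -0.07 and 0.04. Depth does not limit these genes, whereas their isoforms, strand and shared reads cannot be resolved from the counts.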
